A study of Homo sapiens with 3 samples.

Results

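The 36 genes described here encode enzymes and regulators of cholesterol synthesis (22 genes) and of fatty acid synthesis (14 genes), out of 19974 protein-coding genes on chromosomes 1 to 22 and X. They were chosen as a pathway list, and each was given every anti-FOXM1 peak whose summit, the position of highest signal, lay inside the gene or within 5 kb of it on GRCh38. This gave 35 of the 8271 peaks of replicate 2 and 44 of the 11502 peaks of replicate 3. The study measured where the forkhead transcription factor FOXM1 sits on chromatin, by ChIP-seq (antibody capture of protein-bound DNA followed by sequencing) in Huh7, an established human hepatocellular carcinoma line. All 3 libraries came from untreated cells: 1 input library without antibody and without a peak list in this work, and a pair of anti-FOXM1 ChIP libraries (antibody clone G-5) titled as replicates 2 and 3. The labels do not say whether these replicates were separate cultures, and a single line without a FOXM1-depleted or unspecific-antibody library gives no measure of how specific the peaks are. Peak lists hold no expression values, so hepatocyte markers could not be checked.

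Cholesterol is built from acetyl-CoA through mevalonate, squalene and lanosterol, and fatty acids are built from the same acetyl-CoA by carboxylation, chain synthesis, elongation and desaturation. Both routes are controlled by the SREBP transcription factors. SCAP carries them from the endoplasmic reticulum for activation when sterol is low, and the INSIG proteins hold SCAP back when sterol is high. In liver the carbohydrate-sensing factor ChREBP, the product of MLXIPL, adds to the control of the fatty acid route. FOXM1 is known chiefly for genes of the late cell cycle.

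Where both libraries had a peak near a start, the promoter sequence before that start can be read directly. RefSeq promoter windows (300 bases, 250 before and 50 after a start, GRCh38.p14) were available for 32 of the 36 genes and gave 44 windows, and no window was used for ACAT2, FDFT1, SQLE and FASN. In 11 genes the summits of both libraries lay within 1 kb of such a start, and in 5 of them both summits fell inside the window. The 250 bases before the start of these 5, and of SREBF2, are printed 5′ to 3′ on the gene's strand. SREBF2 had the highest folds of the sterol genes. Its shared locus (41833358 to 41833799) lay past the start, wholly outside the printed bases, so those bases do not underlie its peak. Capitals mark exact matches, on either strand, to the GC box GGGCGG, the CCAAT box, the E-box CACGTG or the sterol element TCACCCCAC, and matches can overlap each other. The windows are INSIG1 (chr7:155297628-155297877, plus strand), DHCR7 (chr11:71448394-71448643, minus), SREBF2 (chr22:41832855-41833104, plus), ACACA (chr17:37359097-37359346, minus), ELOVL1 (chr1:43368012-43368261, minus) and FADS1 (chr11:61817004-61817253, minus).
INSIG1: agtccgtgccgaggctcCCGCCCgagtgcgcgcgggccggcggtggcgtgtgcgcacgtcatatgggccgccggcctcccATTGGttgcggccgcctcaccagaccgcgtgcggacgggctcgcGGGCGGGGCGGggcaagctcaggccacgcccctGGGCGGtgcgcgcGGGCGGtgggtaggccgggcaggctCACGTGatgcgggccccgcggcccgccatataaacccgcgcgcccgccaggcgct
DHCR7: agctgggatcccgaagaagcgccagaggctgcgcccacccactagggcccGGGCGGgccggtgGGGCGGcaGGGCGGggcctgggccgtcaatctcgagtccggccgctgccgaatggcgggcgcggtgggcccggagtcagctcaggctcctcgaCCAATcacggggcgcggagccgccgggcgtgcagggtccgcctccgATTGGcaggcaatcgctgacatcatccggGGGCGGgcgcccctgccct
SREBF2: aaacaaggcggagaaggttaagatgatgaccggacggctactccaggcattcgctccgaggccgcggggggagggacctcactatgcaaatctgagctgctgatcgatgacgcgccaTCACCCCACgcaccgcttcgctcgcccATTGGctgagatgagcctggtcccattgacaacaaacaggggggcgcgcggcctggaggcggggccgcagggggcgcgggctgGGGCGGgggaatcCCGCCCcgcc
ACACA: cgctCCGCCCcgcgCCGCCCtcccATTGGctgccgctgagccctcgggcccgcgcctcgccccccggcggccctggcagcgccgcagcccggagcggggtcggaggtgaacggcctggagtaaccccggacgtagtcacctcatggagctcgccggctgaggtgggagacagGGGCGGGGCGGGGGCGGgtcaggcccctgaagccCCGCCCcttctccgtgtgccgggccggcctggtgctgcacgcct
ELOVL1: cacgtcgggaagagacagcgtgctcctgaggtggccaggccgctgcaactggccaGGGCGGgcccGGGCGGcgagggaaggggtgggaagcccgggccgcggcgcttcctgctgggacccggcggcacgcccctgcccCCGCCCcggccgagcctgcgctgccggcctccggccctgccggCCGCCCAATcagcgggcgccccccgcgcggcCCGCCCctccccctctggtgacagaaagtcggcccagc
FADS1: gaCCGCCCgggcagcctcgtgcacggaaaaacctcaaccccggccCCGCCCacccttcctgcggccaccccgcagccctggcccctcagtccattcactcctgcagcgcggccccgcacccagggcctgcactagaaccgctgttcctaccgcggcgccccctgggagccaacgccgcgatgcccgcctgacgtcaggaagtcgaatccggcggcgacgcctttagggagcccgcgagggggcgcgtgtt

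GC boxes stood in each of the 6 printed sequences, and the CCAAT box in each but FADS1. Over all 44 windows of the members, 37 held a GC box and 27 a CCAAT box, against 56.3% and 34.6% of 22156 windows of protein-coding genes. The forkhead letters GTAAACA occurred in 1 member window, at ELOVL6, against 2.85% of all windows. The letters TTTGAA of the cell cycle element CHR occurred in 3 (DHCR7, ACACB and ELOVL6) against 12.4%, and the E-box in 6 against 8.34%. The exact letters TCACCCCAC of the sterol element occurred in 1 member window, at SREBF2, against 0.433% of all windows. No other spelling of the element was searched, and ACAT2, FDFT1, SQLE and FASN had no window. The match began 133 bases before the start. Summits at SREBF2 lay 305 bp after the start in replicate 2 and 383 bp after it in replicate 3. These matches describe letters in the windows, not sites in use. Member windows were GC-rich, with a median GC content of 67.3% against 62.3% over all windows.

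Peaks were found at more of the fatty acid genes than of the sterol genes, and at a larger share of both than of protein-coding genes at large. Replicate 2 had a peak at 24 of the 36 members, against 33.3% of all protein-coding genes, and replicate 3 at 22, against 41.3%. A shared peak, meaning that peaks of the 2 libraries at the gene overlapped by at least 1 bp, was present at 17 members (47.2%), against 25.5% of all protein-coding genes. Of the 22 sterol genes 8 had a shared peak (36.4%), and of the 14 fatty acid genes 9 did (64.3%). The 8 sterol genes included 4 of the 5 sterol-sensing genes. Among sterol enzymes, 1 of 7 mevalonate genes, 2 of 3 squalene and lanosterol genes and 1 of 7 later genes had one. The higher share of the sterol list thus came with its sensing genes. FADS1 and FADS2 both count among the fatty acid genes, although every shared locus of FADS1 was also assigned to FADS2. The difference between these lists was not tested, since genes are not replicates. In the plot of shares by gene list, the fatty acid genes stand highest in each kind of call.

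**Figure D1:**
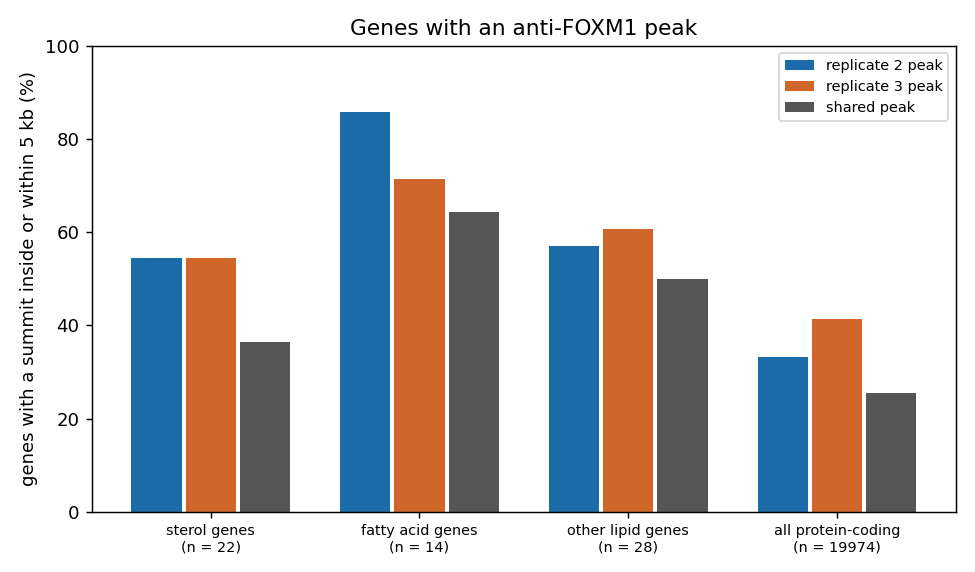
Percentage of genes with a peak summit inside or within 5 kb of the gene (y axis) for the sterol, fatty acid and other lipid genes and for all protein-coding genes, by kind of call (bars). Shared peaks stand at 36.4% of sterol genes and 64.3% of fatty acid genes, against 25.5% of all protein-coding genes.

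Gene span differed between the lists in the same direction as these shares, and promoter GC content in the opposite direction. The fatty acid genes were longer (median span 53.8 kb) than the sterol genes (22.3 kb) and all protein-coding genes (24.2 kb). The share of protein-coding genes with a shared peak was 20.5% in the shortest tertile by span, 26% in the middle tertile and 30.1% in the longest. Median promoter GC content was 68.3% in the sterol windows and 66.3% in the fatty acid windows. Over all protein-coding genes the share with a shared peak moved more with promoter GC content than with span, over the 15813 genes with a window, from 9.16% in the lowest tertile to 22.2% in the middle and 45.7% in the highest, above 66.7% GC. Of the 17 members in that highest tertile, 7 had a shared peak, 4 of 12 sterol and 3 of 5 fatty acid genes, so here the members lay near the background. In the middle and lowest GC tertiles, 5 of 11 and 2 of 4 members had one. Counting only summits within 1 kb of a RefSeq start (or of either gene end where no start was given), which depends less on span, left 5 of 22 sterol and 8 of 14 fatty acid genes with a shared peak, against 20% of all protein-coding genes. The part of span and composition in the difference between the lists was not tested.

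Of the 7 genes of the mevalonate steps, from acetyl-CoA to the isoprenoid units, 1 had a shared peak, against 25.5% of all protein-coding genes. The steps after lanosterol had as few, and differences between steps of so few genes were not tested. The mevalonate gene with a shared peak was FDPS, which makes farnesyl diphosphate. Its peaks (chromosome 1, 155322756 to 155322962) had fold enrichment, the linear ratio of fragments at the summit to the local background as deposited by the authors, of 3.39 in replicate 2 and 3.64 in replicate 3. The locus lay over 2 kb outside FDPS and inside the neighbouring gene RUSC1, so its assignment to FDPS rests on the 5 kb window alone.

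ACAT2, the cytosolic acetoacetyl-CoA thiolase, had a peak in each library without overlap. Replicate 2 had fold 3.88 at 156 bp inside the gene, and replicate 3 had fold 2.63 at 180 bp outside it. Both summits also lay within SOD2, and the replicate 3 call was close to the list's floor, where −log10 q was 1.32 and the lowest in that list was 1.31. At MVD, mevalonate diphosphate decarboxylase, replicate 2 had fold 2.99 at 398 bp before the start. Replicate 3 instead had fold 4.46 beyond the opposite end of MVD, 68 bp from an end of CYBA. IDI1, the isopentenyl diphosphate isomerase, had a peak in replicate 2 only (fold 3.56), 240 bp after a start. HMGCS1, MVK and PMVK, the synthase and the kinases of this stretch, had none in either library.

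Of the enzymes that make and close squalene, FDFT1 and SQLE had shared peaks and LSS, lanosterol synthase, had none. FDFT1, squalene synthase, had fold 3.72 in replicate 2 and 4.51 in replicate 3 (chromosome 8, 11808426 to 11808761), with summits 7 bp apart and 13018 and 13011 bp inside the gene from its lower coordinate end. The peak rested on 18 and 21 fragments, among the lowest counts of the shared loci. SQLE, the squalene epoxidase, showed the reverse, many fragments on a high background. It had 30 fragments over a background of 10.0 in replicate 2 and 29 over 9.0 in replicate 3, giving folds of 2.40 and 2.62. Only 1.2% of replicate 2 peaks and 3.78% of replicate 3 peaks had a lower fold.

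Among the 7 genes after lanosterol only DHCR7, the enzyme of the last step, had a shared peak, against 25.5% of all protein-coding genes. Its summits lay 48 and 206 bp before the internal RefSeq start whose sequence is printed above, with folds of 3.14 in replicate 2 and 3.47 in replicate 3, and 602 and 444 bp after the other start. DHCR7 also drew a peak about 4 kb before its outer start (folds 3.58 and 2.91), with summits 118 and 4 bp from an end of NADSYN1. Single-library peaks stood close to starts of 3 more enzymes. CYP51A1, the lanosterol demethylase, had fold 2.84 in replicate 3 at 141 bp after the start. MSMO1, the C4-methyl sterol oxidase, had fold 4.19 in replicate 3 at 12 bp before the start, with a −log10 q of 5.73. EBP, the sterol isomerase, had fold 3.60 in replicate 2 at 160 bp after the start. NSDHL, HSD17B7 and SC5D had no peak. A missing call says only that the lists' threshold was not passed, and with medians of 26 and 24.5 fragments over the summits of all peaks, weaker occupancy was not detectable.

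The sterol-sensing genes had a shared peak at 4 of 5 genes, against 25.5% of all protein-coding genes. They made up 4 of the 8 sterol genes with one. SREBF2, which encodes the SREBP that chiefly drives cholesterol genes, had the highest folds of that list, 4.59 in replicate 2 and 5.24 in replicate 3 (chromosome 22, 41833358 to 41833799). Its replicate 3 fold was higher than 95.4% of that library's peaks. INSIG1 had a broad locus over its start (chromosome 7, 155297359 to 155298130), with fold 4.20 in replicate 2 and 3.93 in replicate 3. Replicate 2 had a further peak there, 687 bp before the start (fold 4.22), that no replicate 3 peak overlapped.

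SCAP, the escort of the SREBPs, had a shared locus toward each end. Near the start, summits 3 bp apart lay 201 and 204 bp after the RefSeq start, with folds of 3.41 and 3.71. That start (47475941) itself lies inside the annotated gene, which runs to 47477127. The second locus, 58362 and 58589 bp after the start and toward the gene's end, had higher folds (4.58 and 4.39) on fewer fragments (21 and 19, against 31 and 33 near the start) and a lower background (3.11 and 2.99, against 7.0 in both libraries).

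SREBF1, the SREBP gene tied to fatty acid synthesis, had 4 peaks in replicate 2 and 5 in replicate 3, and only 1 pair of them overlapped. That pair lay near the gene's end (chromosome 17, 17812634 to 17812887), with folds of 3.29 and 3.64. Its replicate 3 summit was 644 bp from the microRNA gene MIR6777 and 1000 bp from MIR33B, both hosted by SREBF1. At the start each library had its own weak peak, at 115 bp with fold 2.88 in replicate 2 and at 463 bp with fold 2.81 in replicate 3. The highest folds, 4.26 and 4.14, belonged to separate peaks outside the gene and within the neighbouring RAI1. INSIG2 had no peak.

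In the plot of fold by gene, the sterol sensors with a peak stand to the right of most sterol enzymes, with overlapping counting intervals. In replicate 3, MVD (4.46), FDFT1 (4.51) and MSMO1 (4.19) stand to the right of INSIG1 (3.93) and SREBF1 (4.14). The SREBF1 points are its unshared peaks within RAI1, not its shared peak.

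**Figure D2:**
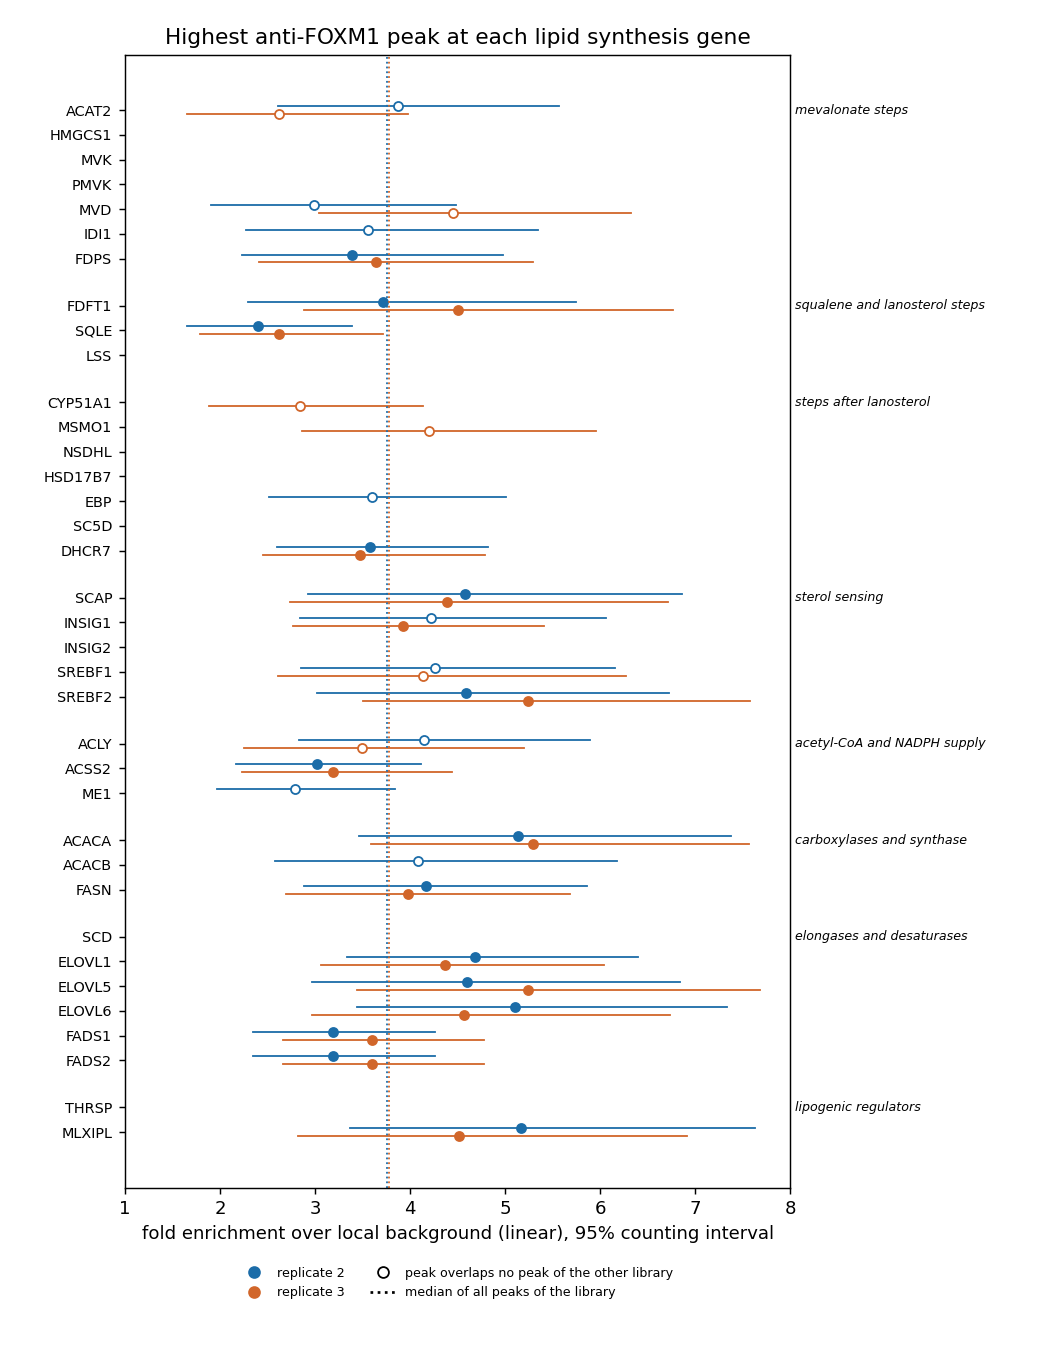
Fold enrichment of the highest peak (x axis, linear) at each of the 36 genes, grouped by role, for replicate 2 (blue) and replicate 3 (orange). Lines are 95% Poisson counting intervals, open points are peaks that overlap none of the other library, dotted lines are each library's median over all peaks (3.76 and 3.78), and 10 genes have no point.

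Each of the 3 listed genes that supply acetyl-CoA or NADPH to the fatty acid route had a peak. Replicate 2 had one at 3 and replicate 3 at 2, against 33.3% and 41.3% of all protein-coding genes. Only ACSS2, which makes acetyl-CoA from acetate, had a shared peak, against 25.5% of all protein-coding genes. ACSS2 had summits 76 and 64 bp after an internal RefSeq start (folds 3.02 in replicate 2 and 2.69 in replicate 3; chromosome 20, 34876509 to 34876828). A second locus, 2107 and 2263 bp before the outer start of ACSS2 (folds 2.43 and 3.19), had summits 26 and 130 bp from an end of GGT7. ACLY, ATP citrate lyase, had fold 4.15 in replicate 2 beyond the gene's end, within KLHL11, and fold 3.49 in replicate 3 at 184 bp after a start. ME1, malic enzyme, had fold 2.79 at 5 bp after its start in replicate 2 only.

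ACACA, the acetyl-CoA carboxylase of the rate-limiting step, had shared peaks at 2 of its 3 RefSeq starts, with the highest replicate 3 fold of any member. At the start inside the gene (locus on chromosome 17, 37359103 to 37359557) fold was 5.14 in replicate 2 and 4.95 in replicate 3, with summits 120 and 152 bp before that start. At the outermost start (37406946 to 37407253) it was 3.98 and 5.30, with summits 350 and 318 bp before the start and within the divergent neighbour TADA2A. The libraries thus put opposite starts highest, yet 23 against 28 fragments at the outermost start did not differ beyond counting error (exact binomial p = 0.485, two-sided).

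FASN, fatty acid synthase, had shared loci on both sides of an end of the gene. Outside the gene (chromosome 17, 82098248 to 82098881) the folds were 4.17 and 3.98 with summits 12 bp apart, and inside it (82097852 to 82098142 in replicate 2) they were 2.94 and 3.93. ACACB, the mitochondrial-associated carboxylase, had a single peak deep in the gene in replicate 2 (fold 4.08).

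Elongases and desaturases had shared peaks at 5 of 6 genes, against 25.5% of all protein-coding genes. Among these, FADS1 counts only through loci that were also assigned to FADS2. ELOVL1, which elongates saturated very long chains, had the highest −log10 q of any member peak, 8.07 in replicate 2, with 6.91 in replicate 3. Its folds were 4.68 and 4.36 on 37 and 34 fragments, with summits 162 and 96 bp before the start (chromosome 1, 43367774 to 43368411). The nearest end of another protein-coding gene, the mitotic regulator CDC20, was 4937 bp away. ELOVL5, the elongase of polyunsaturated chains, had folds of 4.60 and 5.24 at 499 and 383 bp after its start (chromosome 6, 53348374 to 53348925). ELOVL6, which extends palmitate to stearate, had folds of 5.11 and 4.56 at 1533 and 1782 bp after its start (chromosome 4, 110196403 to 110197164). SCD, the stearoyl-CoA desaturase acting on that product, had no peak in either library.

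FADS1 and FADS2, the desaturases of polyunsaturated fatty acids, overlap at their divergent starts and share 2 of the 4 shared loci of the region. The locus over the FADS1 start (chromosome 11, 61816488 to 61817225) had folds of 3.19 in replicate 2 and 2.55 in replicate 3, with summits 43 bp after and 42 bp before the start. The neighbouring locus (61815152 to 61815808) had folds of 3.19 and 3.60, 781 and 948 bp before the nearer FADS2 start. In replicate 3 its summit lay 15 bp from the microRNA gene MIR1908 inside FADS1. The other loci lay inside FADS2, 11248 and 12515 bp after a start in replicate 2, with folds of 2.39 and 2.83 at the nearer and 3.16 and 2.97 at the farther. Fragments ranged from 31 to 46 at these summits, the highest count of any member peak, while the rebuilt backgrounds ranged from 8.42 to 14, the highest of any member peak. The fold in this region was therefore low although the counts were high, as the map of the FADS region shows.

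**Figure D3:**
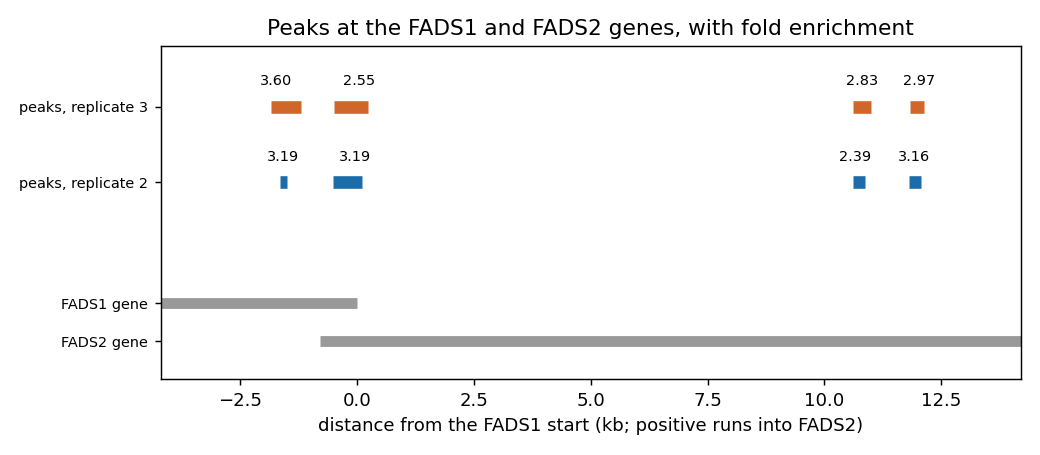
Map of peaks (bars to scale, with fold enrichment above) of both libraries relative to the FADS1 start, with the FADS1 and FADS2 genes in grey, drawn only near the peaks (x axis in kb). All 4 peaks of replicate 2 have a replicate 3 partner, with folds from 2.39 to 3.19 in replicate 2 and from 2.55 to 3.60 in replicate 3.

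MLXIPL, the ChREBP gene, had the highest single fold of any member in replicate 2, 5.17, with 4.52 in replicate 3 (chromosome 7, 73624348 to 73624629). Its summits lay 138 and 7 bp after the RefSeq start, on 23 and 19 fragments over backgrounds of 2.97 and 2.88. The replicate 2 background was the lowest of the member peaks of that library, and the replicate 3 background was the lowest together with peaks at MVD, SREBF2 and ELOVL5. Replicate 3 also had a peak 966 bp after the start (fold 3.15) and another 108 bp beyond the upstream end of the annotated gene (fold 4.16), both without a replicate 2 partner. THRSP, a lipogenic cofactor induced by thyroid hormone, had no peak.

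Across the members there were 24 distinct shared loci, 10 at sterol and 14 at fatty acid genes. Both summits lay within 1 kb of a RefSeq start of the member at 12 of them, and at 5 the midpoint of the summits was within 1 kb of an end of another protein-coding gene. Which gene such a locus acts on was not tested. The summits of the libraries were a median of 97.5 bp apart, from 3 to 249 bp, against a median of 92 bp over all 5357 shared loci. The median of the lower fold of the libraries was 3.40, against 3.56 over all shared loci. By this value the members' shared loci lay near the middle of all shared loci. Both folds exceeded the library medians at 10 of the 24 loci, 3 sterol and 7 fatty acid. That count was not made over all shared loci, so it is a description only. Of 38 distinct member summits within 1 kb of a RefSeq start, in either library and at 19 genes, 34 lay within 500 bp of the nearest one, as the plot of summit distances shows. Matching shares over all peaks and all shared loci were not counted, for these summits or for the 12 loci near a start. Whether nearness to starts is particular to the members was therefore not tested.

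**Figure D4:**
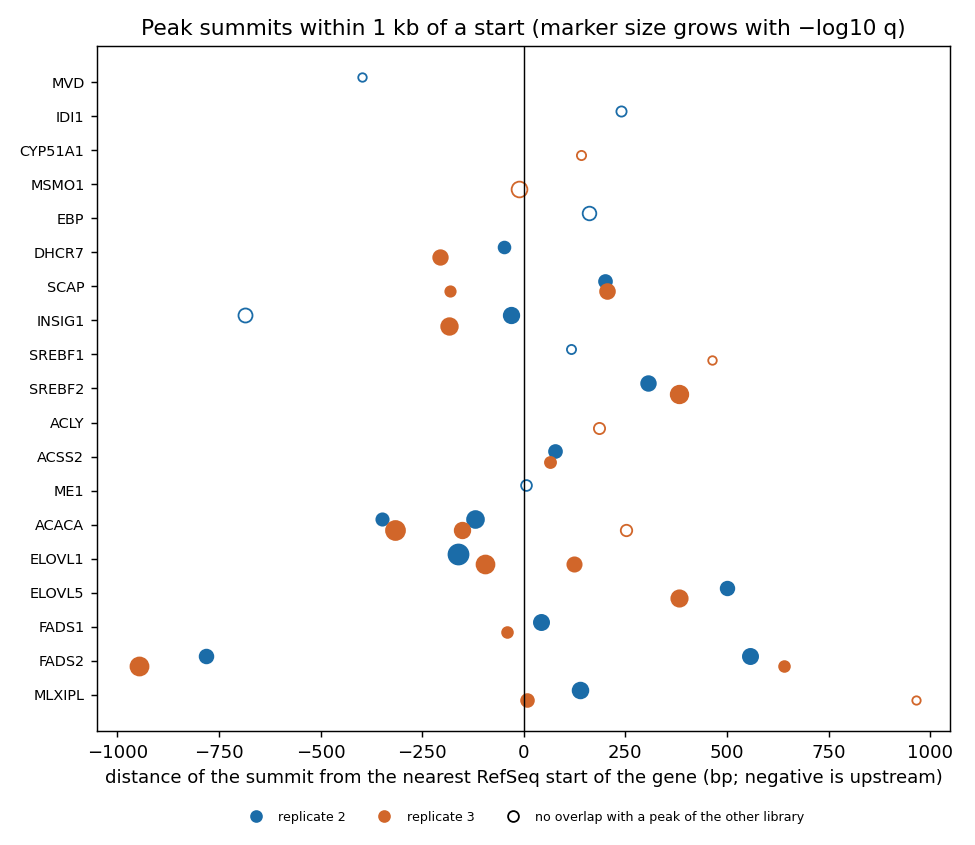
Distance of each peak summit from the nearest RefSeq start of its gene (x axis, bp, negative upstream) for members with a summit within 1 kb of a start, with 2 summits drawn at both FADS1 and FADS2. Marker size grows with −log10 q, open points overlap no peak of the other library, and MSMO1 at 12 bp upstream and ME1 at 5 bp downstream are the nearest single-library summits.

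Fragment counts over the summits were rebuilt from the deposited fold and p, and at the 24 loci they ranged from 18 to 46. The 95% Poisson intervals of the libraries overlapped at all 24, and an exact two-sided binomial test against the relative depth gave no adjusted p under 0.05 over all 5357 loci and no unadjusted p under 0.05 at the members. The lowest member p was 0.453, at the FADS1 and FADS2 locus with 40 and 46 fragments. Over all loci 9 (0.168%) had an unadjusted p under 0.05, so the libraries differed by less than sampling noise at loci chosen for a call in both. The values of the libraries are therefore given side by side, with no mean or SD. This compares the 2 libraries and not conditions, and the intervals cover counting error only. The plot of fragments shows the points along the line of equal depth.

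**Figure D5:**
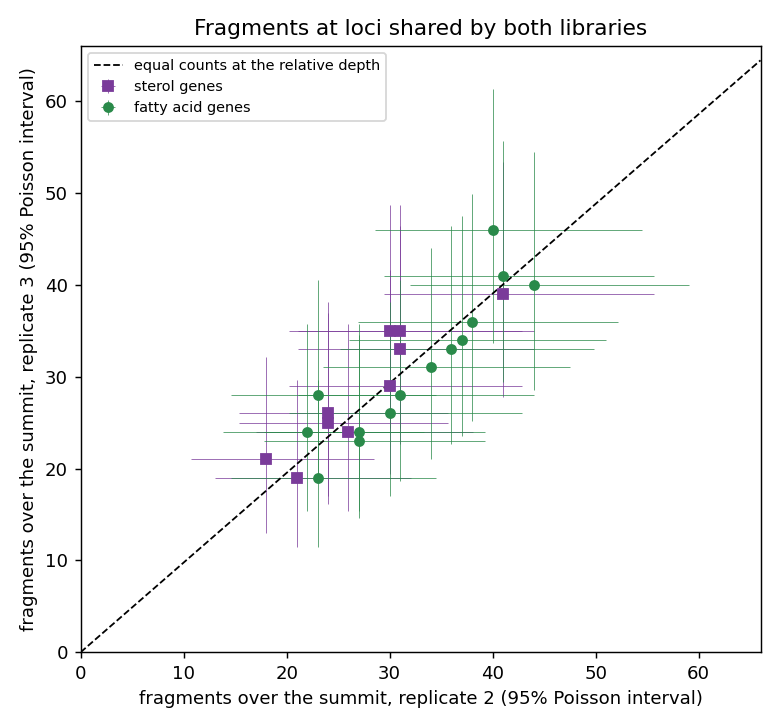
Rebuilt fragments over the summit in replicate 2 (x axis) and replicate 3 (y axis) at the 24 loci shared by both libraries, with 95% Poisson intervals, for sterol (squares) and fatty acid genes (circles). All points lie between 18 and 46 fragments, and all intervals of the 2 libraries overlap.

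The calls thinned at stricter thresholds. At −log10 q of at least 5, 12 members had a replicate 2 peak and 13 a replicate 3 peak, against 12.5% and 16.2% of protein-coding genes. At fold of at least 4 it was 12 and 11, against 15.7% and 20.9%. With −log10 q of at least 5 in both libraries, 5 members kept a shared peak (INSIG1, SREBF2, ACACA, FASN and ELOVL1), against 6.36% of protein-coding genes. With fold of at least 4 in both, 7 did (SCAP, SREBF2, ACACA, ELOVL1, ELOVL5, ELOVL6 and MLXIPL), against 8.33%. SREBF2, ACACA and ELOVL1 were in both sets. Requiring summits within 100 bp left 11 members (15.7% of protein-coding genes), and counting only summits inside the gene left 13 (16.1%).

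Related lipid genes outside the list also carried peaks. Of 28 such genes 14 had a shared peak, against 25.5% of all protein-coding genes, and 11 had one within 1 kb of a start, against 20%. The highest lower fold of the libraries was at ELOVL2, an elongase of polyunsaturated chains (5.04 in replicate 2 and 5.35 in replicate 3, at 245 and 285 bp from the start). GGPS1, which makes geranylgeranyl diphosphate, had 5.13 and 3.64, LPIN1, a phosphatidate phosphatase, 3.98 and 5.17, and NR1H3, the oxysterol receptor LXR alpha, 4.12 and 4.82. MBTPS1, the protease that cleaves the SREBPs, had 3.47 and 4.44. Of the glycerolipid enzymes, shared peaks were at DGAT1 (3.71 and 3.99) and DGAT2 (3.42 and 3.85), which make triglyceride, and AGPAT2 (3.42 and 3.06). The others with a shared peak were LBR, ELOVL3, FADS3, SCD5, ACSL3 and SLC25A1, with folds from 2.35 to 4.79.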

How the data were processed

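Peaks of 2 anti-FOXM1 libraries were analysed. The submitters' processing notes name CASAVA 1.4, BWA, MACS2 2.2.7.1 and GRCh38 with no role or order. Filters and the control library are not given in the sources used here. The authors deposited 1 peak list and 1 summit list per library. Each peak had a deposited fold enrichment (a linear ratio to the local background), −log10 p and −log10 q. The deposited score (−log10 q times 10) was not used, and the other deposited column, an offset in bp, placed the summit.

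Coordinates are 1-based. Gene positions and promoter windows came from RefSeq tables (GRCh38.p14), and exons, introns and UTRs were not used here. Fragments and background at each summit were rebuilt from fold and −log10 p. Fold was read as the scaled count plus 1 over background plus 1, and p as a Poisson upper tail. All peaks (100%) matched within 0.001, and 100% of simulated peaks (791 and 780) returned the exact count. The scales, 0.848 and 0.869, make replicate 2 1.02 times as deep as replicate 3 if both used the same control, which the labels do not state. Total reads were not used. Shared loci merged overlapping peaks and took each library's highest fold. Their binomial p-values were adjusted by Benjamini-Hochberg over all shared loci.

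The members, lists and motifs were chosen with earlier results of these data known, and the tertiles and equal depths after seeing the data. Every member is named. Promoters are printed for 6 of the 11 genes the rule allows. Alternatives changed the window, threshold, sharing rule and libraries. Python 3.11.15, statsmodels 0.14.6, SciPy 1.17.1, matplotlib 3.10.9, pandas 2.3.3 and numpy 2.4.6 were used.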

Additional observations from a re-analysis of the deposited data

How the results depend on the processing

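With −log10 q of at least 5, members with a peak numbered 12 in replicate 2 and 13 in replicate 3, and those with a shared peak 5, of which 2 were sterol and 3 fatty acid genes. The shares of protein-coding genes were 12.5%, 16.2% and 6.36%. With fold of at least 4 the numbers were 12, 11 and 7, with 2 sterol and 5 fatty acid genes, against 15.7%, 20.9% and 8.33%. Requiring summits within 100 bp gave 11 members, 5 of them sterol genes, against 15.7%. Counting shared peaks with summits inside the gene only, or within 1 kb of its start, gave 5 sterol genes each, against 16.1% and 20%. Near the start, 22.7% of sterol genes had one, so that share was close to the background. With a single library the members with a peak numbered from 22 to 24, sterol genes 12 with either, and fatty acid genes from 10 to 12. The shares of protein-coding genes were 33.3% for replicate 2 and 41.3% for replicate 3. Every other alternative run stayed within 1.5 times of the reported counts, and the fatty acid share exceeded the sterol share in each. Taking the peak of highest −log10 q in place of highest fold changed 3 of 46 values, none beyond its counting interval. No locus passed the binomial test with equal depths either, an alternative chosen after seeing the data. No paired analysis was possible because there was only 1 group with peak lists. Few fragments per summit limit the detection of weak peaks.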
